A study of Mus musculus with 6 samples.

Results

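This account follows 9 genes of serine synthesis and folate one-carbon metabolism in a mouse B cell line given siRNA against Spt6. The genes were Phgdh, Psat1 and Psph of serine synthesis, Shmt1 and Mthfd1 of the cytosolic folate pathway, and Shmt2, Mthfd2, Mthfd1l and Aldh1l2 of the mitochondrial folate pathway. They were chosen by membership of the pathway, with the differences between siSpt6 and siControl on these same arrays already known, so their differences are a description and no independent test. Probes were found by gene symbol or synonym, and the brightest probe stood for a gene. Of the 9 genes, 8 had a probe, 1 each, among 15224 genes tested; Phgdh, the first enzyme of the pathway, was not analysed here.

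The comparison was made in CH12F3-2A cells, a line derived from a B cell lymphoma that switches to IgA on stimulation. The siSpt6 group (3 samples) was electroporated with siRNA against Spt6, a histone chaperone that travels with RNA polymerase II and is encoded by Supt6, and the siControl group (3 samples) with control siRNA. Both groups were stimulated 24 h later with CD40L, IL4 and TGFb (the mixture CIT) and were harvested after a further 24 h. The labels give the 2-mercaptoethanol of the growth medium as 50 mM for siSpt6 and as 50 microM for siControl, a discrepancy that may be a typing error and that the arrays cannot settle. They name the siRNA chemistry for siSpt6 alone. These differences in the labels follow the groups, so any difference in handling behind them cannot be told apart from the siRNA. All samples come from 1 line, and since nothing states that they were separate cultures, p-values cover the spread among these samples alone, and it may be technical.

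Transcript levels were read from Cy5-labelled RNA, 1 array per sample, as intensities in arbitrary units, deposited by the authors on a scale with array medians close to 30. Array means, unlike the medians, differed between the groups, at 329, 330 and 339 in siSpt6 and 404, 408 and 397 in siControl. Between 21526 and 22372 of 23473 probes had a value on an array, and the number of arrays limits the precision. Supt6 read 25.1, 21.8 and 28.1 in siSpt6, against 33.1, 32.1 and 32.1 in siControl. Its log2 difference of -0.38 (SE 0.13) did not pass the threshold in the deposited values (limma adjusted p = 0.0973), so the knockdown is not shown at that threshold. Bright probes tended to be lower in siSpt6, with a median log2 difference of -0.15 in probes with a mean log2 level of at least 7.33 and 0.087 in those up to 2.86. The 8 B cell markers measured had summed intensities of 31112 to 34305 in siSpt6 and 30136 to 34223 in siControl. The largest part of the sum was Cd74, at 15472 to 19174 in siSpt6 and 19987 to 22068 in siControl. Similar sums therefore do not mean that each gene was unchanged. Of the 8 genes, 2 rose and 1 fell, against 7.43% of all tested probes higher and 8.90% lower. The 5 T cell markers measured summed to between 43.4 and 49.8 in siSpt6 and between 41.1 and 59.5 in siControl. The 5 myeloid markers, with most of their sum from Csf1r, summed to between 79.7 and 87.5 in siSpt6 and between 67.1 and 84.4 in siControl. Of these 10 genes 0 passed the threshold (limma), and 1 had an unadjusted p under 0.05. The 2 erythroid markers measured, Alas2 and Klf1, summed to between 39.0 and 47.8 in siSpt6 and between 47.3 and 56.7 in siControl and did not pass it.

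Cells make serine from the glycolytic intermediate 3-phosphoglycerate. Phgdh oxidises it, Psat1 adds an amino group from glutamate, and Psph removes the phosphate. Serine then gives a carbon unit to tetrahydrofolate, leaving glycine, through Shmt1 in the cytosol or Shmt2 in mitochondria. In mitochondria Mthfd2 oxidises the folate-bound carbon and Mthfd1l releases it as formate, while Mthfd1 in the cytosol takes up formate for purine and thymidylate synthesis. Aldh1l2 burns mitochondrial formyl-folate to carbon dioxide. Proliferating lymphocytes are known to rely on this pathway for nucleotides, and several of its genes are known targets of the transcription factors ATF4 and MYC.

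Both measured serine synthesis genes were lower in siSpt6. Psat1, the aminotransferase, read 1089, 1066 and 1157 in siSpt6, against 4252, 3511 and 3561 in siControl. The arrays within a group lay close together and the lowest siControl array was 3.03 times the highest siSpt6 array. The means were 1104 ± 47.4 in siSpt6 and 3775 ± 414 in siControl (intensity ± SD, n = 3 each), a 3.41-fold lower geometric mean with a 95% interval of 2.77 to 4.19. With a log2 difference of -1.77 (SE 0.13), Psat1 ranked 38 of 15224 genes from the most negative. Psph, the phosphatase that ends the pathway, read 531, 543 and 598 in siSpt6, against 1094, 1332 and 1257 in siControl. The groups did not overlap here either. Its log2 difference was -1.14 (SE 0.13), a 2.20-fold lower level with an interval of 1.78 to 2.71.

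In the mitochondrial folate pathway 3 of 4 genes were lower. Shmt2, which splits serine into glycine and a folate-bound carbon, read 540, 598 and 697 in siSpt6, against 1630, 1722 and 2073 in siControl. Its log2 difference was -1.56 (SE 0.15), a 2.96-fold lower level with a 95% interval of 2.30 to 3.80. Shmt2 thus had the second most negative difference of the 8 genes. Mthfd2, the dehydrogenase and cyclohydrolase of the next step, read 847, 994 and 962 in siSpt6, against 2109, 2273 and 2120 in siControl. The difference was -1.22 (SE 0.12), or 2.32-fold lower (interval 1.91 to 2.83). Mthfd1l, the ligase that releases formate, was dimmer at 62.2, 47.8 and 68.5 in siSpt6, against 108, 117 and 111 in siControl. Its siSpt6 arrays were the most spread of the 7 genes measured on every array, with a coefficient of variation of 17.8%, and they still lay below all siControl arrays. The log2 difference of Mthfd1l was -0.93 (SE 0.16), or 1.91-fold lower (interval 1.47 to 2.47).

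Aldh1l2, which oxidises formyl-folate in mitochondria, was very dim and passed the threshold in neither direction. It read 2.62, 2.82 and 1.79 in siSpt6, against 1.98 and 1.41 in siControl replicates 1 and 3; siControl replicate 2 was blank. The groups overlapped, and its mean log2 level of 1.04 was at or above that of only 4.15% of tested probes. The fit used 5 arrays for it and gave a log2 difference of 0.50 (SE 0.26, interval -0.14 to 1.14), not past the threshold. Among probes with a mean log2 level up to 2.86, 4.56% were called higher and 1.83% lower.

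The cytosolic pair was lower as well. Mthfd1, a single protein with 3 activities that interconvert folate-bound carbon units, read 240, 232 and 268 in siSpt6, against 488, 479 and 534 in siControl. Its log2 difference was -1.02 (SE 0.12), or 2.03-fold lower with an interval of 1.67 to 2.47. Shmt1, the cytosolic partner of Shmt2, read 125, 122 and 117 in siSpt6, against 202, 179 and 194 in siControl. The groups did not overlap, and the difference of -0.66 (SE 0.11), or 1.57-fold lower (interval 1.31 to 1.89), was the one nearest to 0 among the 7 lower genes. For the hydroxymethyltransferases, the 95% interval of the log2 difference ran from -1.93 to -1.20 for mitochondrial Shmt2 and from -0.92 to -0.39 for cytosolic Shmt1, and the intervals did not overlap. For the formate-handling enzymes, the intervals of mitochondrial Mthfd1l (-1.31 to -0.55) and cytosolic Mthfd1 (-1.31 to -0.74) lay almost on each other.

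**Figure D1:**
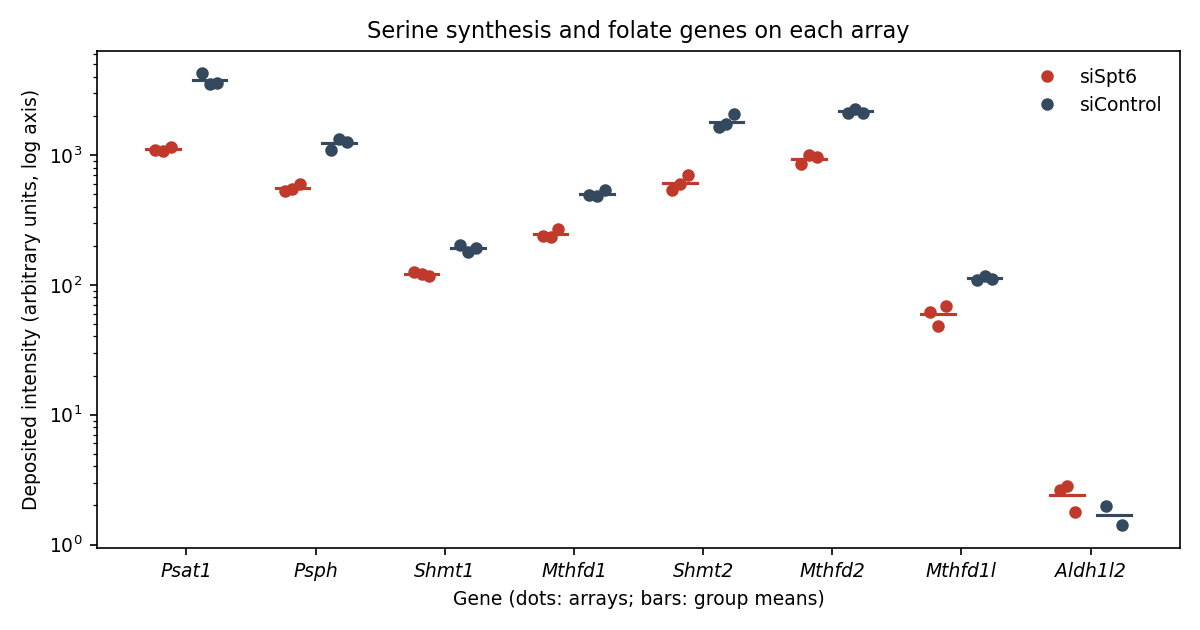
Deposited intensity in arbitrary units (log axis) of the 8 measured genes, with 1 dot for each array and a bar at each group mean, siSpt6 in red and siControl in dark blue. For 7 genes every red dot lies below every blue dot, while Aldh1l2 lies near the bottom of the axis with overlapping groups and 2 siControl values.

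Counted over the list, 7 of 8 measured genes passed the threshold as lower in siSpt6 and 0 as higher (limma, Benjamini-Hochberg adjusted p under 0.05 over all tested probes). Over all tested probes, 8.90% were lower and 7.43% higher by the same rule, and among probes with a mean log2 level of at least 7.33, 20.7% were lower. Groups that did not overlap, lower in siSpt6, were seen for 7 of the 7 genes measured on all arrays, and for 20.4% of all probes so measured. The contrast was known when the genes were chosen, so these shares are given for reference only. The median log2 difference was -1.08 over the 8 genes and -0.0019 over all genes tested. The summed intensity of the 8 genes lay between 3437 and 3872 in siSpt6 and between 9615 and 9883 in siControl. Over all genes tested the sum was also lower, between 4107850 and 4332960 in siSpt6 and between 4790210 and 5012950 in siControl. In bulk RNA, fewer cells with a high level and less RNA in every cell cannot be told apart.

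Of the 7 lower genes, 5 had a mean log2 level above 7.33, where most probes leaned towards lower values in siSpt6. Quantile normalization gave -1.49 for Psat1, -1.32 for Shmt2 and -0.59 for Shmt1, and cyclic loess gave -1.51, -1.36 and -0.60. All 7 kept their calls under both, and Aldh1l2 stayed without one (0.50 and 0.39). Leaving out any 1 array also left the 7 calls in place. Within the siSpt6 group, replicate 3 was the highest array for 5 of the 7 genes, and its median deviation from the group mean over the 7 genes was 0.10 on the log2 scale.

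**Figure D2:**
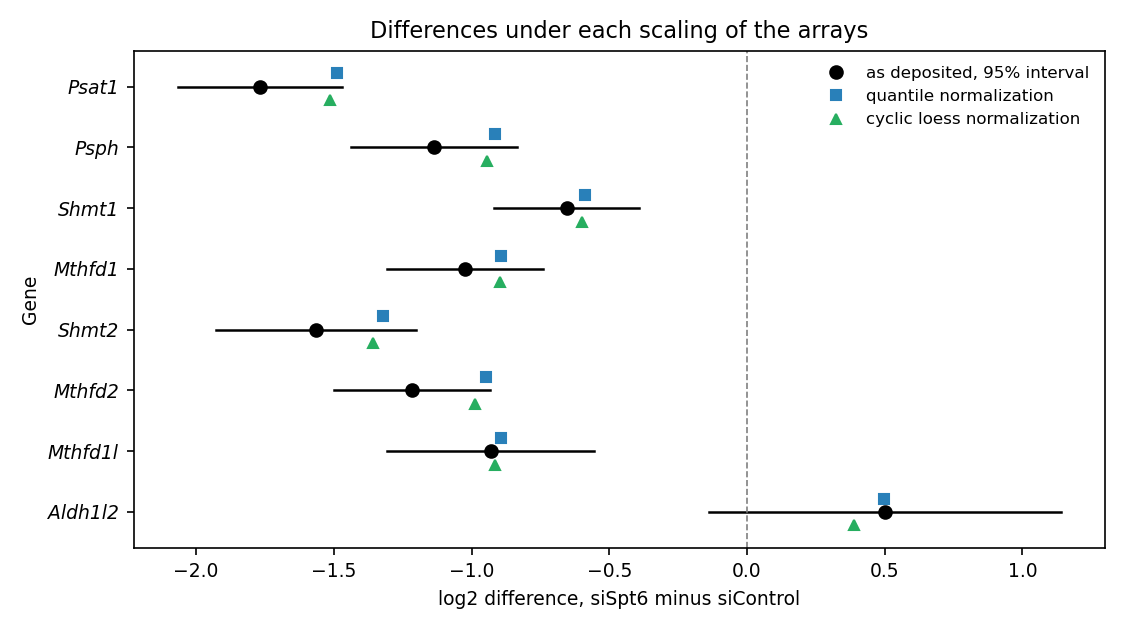
Log2 difference (siSpt6 minus siControl) of each measured gene, with the deposited values as black dots and 95% intervals, quantile normalization as blue squares and cyclic loess as green triangles. Both normalizations bring Psat1 nearer to 0 (-1.49 and -1.51 against -1.77), and the 7 lower genes stay below 0 under each.

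**Figure D3:**
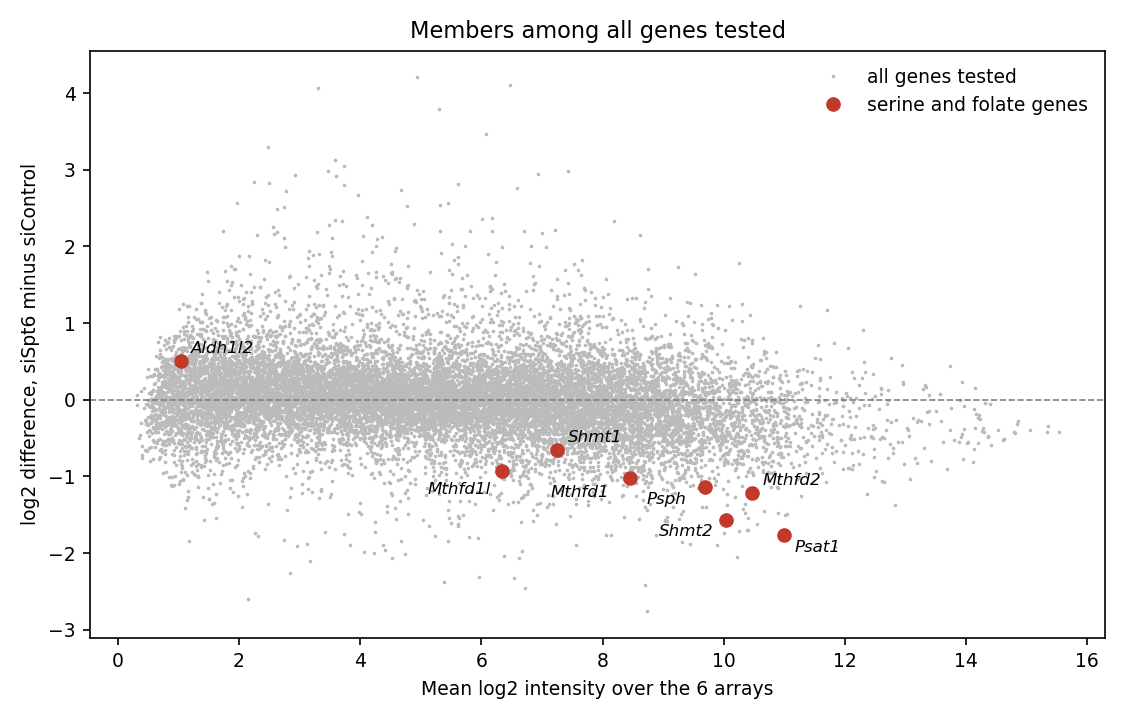
Log2 difference (siSpt6 minus siControl) against mean log2 intensity over the 6 arrays, with all tested genes in grey and the serine and folate genes in red. The 7 lower genes lie below 0 at medium to high intensity, from Psat1, which ranked 38 of 15224 genes from the most negative, to Shmt1, which ranked 1123, and Aldh1l2 lies at the dim end above 0.

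For each gene, the gene outside the list with the nearest profile over the 6 arrays was looked up among 7923 candidates, by the root mean square distance of mean-centred log2 values. For Psat1 it was Bcat1, a cytosolic aminotransferase of branched-chain amino acids, at a distance of 0.063. For Psph it was Tpi1, the glycolytic triosephosphate isomerase, at 0.055. For Mthfd1 it was Mybbp1a, a nucleolar protein, at 0.029, and for Shmt1 it was Galnt7, a glycosyltransferase, at 0.017. Shmt2 lay nearest to the kinase gene Pim2 at 0.10, Mthfd2 to Timm8a1, an import chaperone of mitochondria, at 0.072, and Mthfd1l to the metallothionein gene Mt2 at 0.062. Within the list, Psph and Mthfd2 were closest to each other at 0.098, and Psat1 and Shmt1 farthest apart at 0.56. These distances mostly reflect the size of the group difference and are a description over 6 arrays.

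The promoters of the list are shown because 7 of its genes were lower together. RefSeq windows on GRCm38.p6, from 250 bases before to 50 bases after a transcription start, were given for 8 of the 9 genes in 9 windows, Psat1 having 2 starts. These 8 are the 7 lower genes and Phgdh, which has no expression value here. Aldh1l2 had no window, so no measured gene outside the 7 lower ones could be set beside them. The lines below give the 250 bases before the start, 5′ to 3′ on the gene's strand, for the gene with the most negative difference, for the mitochondrial dehydrogenase with 3 motif matches, and for Shmt2, which had none. Capitals mark the letters CCAAT, or ATTGG where the motif lies on the other strand.
Psat1, chr19:15925060-15925309, minus strand: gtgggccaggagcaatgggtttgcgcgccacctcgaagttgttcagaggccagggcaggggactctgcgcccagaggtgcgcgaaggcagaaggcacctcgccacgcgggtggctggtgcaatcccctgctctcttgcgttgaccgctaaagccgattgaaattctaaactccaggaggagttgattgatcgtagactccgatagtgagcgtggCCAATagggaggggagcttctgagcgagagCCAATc
Mthfd2, chr6:83317605-83317854, minus strand: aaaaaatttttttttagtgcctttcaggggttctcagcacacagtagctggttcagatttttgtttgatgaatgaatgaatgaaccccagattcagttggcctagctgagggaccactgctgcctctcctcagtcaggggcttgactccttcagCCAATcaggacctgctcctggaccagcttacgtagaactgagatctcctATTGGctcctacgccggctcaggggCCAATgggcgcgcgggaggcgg
Shmt2, chr10:127522445-127522694, minus strand: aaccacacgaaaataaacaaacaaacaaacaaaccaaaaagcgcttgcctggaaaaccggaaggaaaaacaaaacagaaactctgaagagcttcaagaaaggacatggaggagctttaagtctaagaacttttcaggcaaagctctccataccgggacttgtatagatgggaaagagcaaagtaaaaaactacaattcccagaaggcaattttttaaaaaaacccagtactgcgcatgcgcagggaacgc

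Searches covered 3 motifs on both strands, and none of them holds another within its letters. CCAAT was found for 6 of the 8 genes with a window (Psat1, Psph, Shmt1, Mthfd1, Mthfd2 and the unmeasured Phgdh). It was in 6 of the 9 windows of the 8 genes, against 37.4% of all 32851 RefSeq windows. That background holds genes of any level, and CCAAT was chosen with earlier results of these data known. These shares are therefore a description only. Most matches sat within 100 bases before the start, the exceptions being 1 of Phgdh at -193 and 1 of Psat1 at 23. The windows of Shmt2 and Mthfd1l held none, although both genes were lower. TGATGNAA, the core of the element that ATF4 binds together with C/EBP proteins, was in 0 of the 9 windows and in 3.97% of all windows. CACGTG, the E-box bound by MYC among others, was in 0 of the 9 and in 7.15% of all. A match is not a binding site, and the absence of one says only that these letters are not in these windows.

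**Figure D4:**
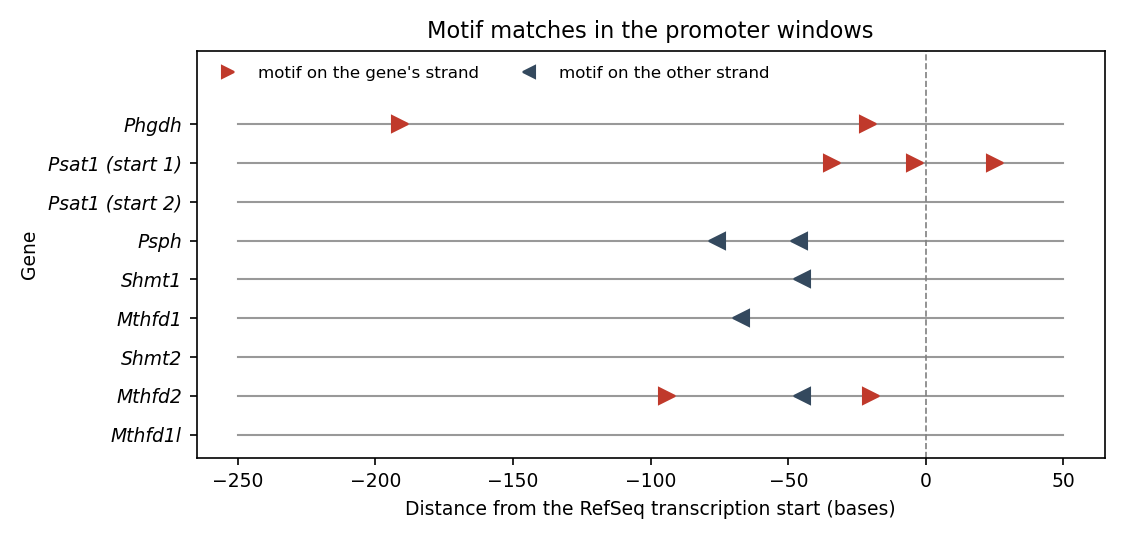
Positions of the 12 CCAAT matches in the 9 RefSeq promoter windows, as distance in bases from the transcription start (0, dashed line). Right-pointing red marks lie on the gene's strand and left-pointing blue marks on the other; the windows of Shmt2, Mthfd1l and the second start of Psat1 are empty.

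The other genes of folate metabolism gave a mixed picture with more falls than rises. Of 13 tested, 7 fell and 2 rose, with a median log2 difference of -0.71. For reference beside this and the later lists, 8.90% of all tested probes were lower and 7.43% higher. At a mean log2 level of at least 7.33, 20.7% were lower and 7.52% higher. Tyms, thymidylate synthase, which uses the carbon units that Shmt1 and Shmt2 load onto folate, fell by 1.39 on the log2 scale (SE 0.10, limma adjusted p = 0.000717). Slc19a1, the main carrier of reduced folates into the cell, read 120, 119 and 123 in siSpt6, against 284, 310 and 290 in siControl, a fall with limma adjusted p = 0.00098. Slc46a1, the proton-coupled folate carrier, read 49.0, 68.4 and 67.3 in siSpt6, against 30.8, 38.0 and 39.0 in siControl. That rise (log2 difference 0.77, limma adjusted p = 0.0293) was in the opposite direction to Slc19a1, and it did not survive the removal of 5 of the 6 arrays, taken 1 at a time (highest limma adjusted p = 0.0899). Folr2, a folate receptor, rose by 0.41, a call that did not survive the removal of any array (highest limma adjusted p = 0.107) or the fit with the replicate number as a block (limma adjusted p = 0.0521).

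The remaining falls of that list were named after their values were seen. Fpgs, which traps folates in the cell by adding glutamates, fell by 0.97 on the log2 scale (SE 0.12, limma adjusted p = 0.00403). Slc25a32, the mitochondrial folate carrier, fell by 0.79 (SE 0.13, limma adjusted p = 0.0099), and Qdpr, a pterin reductase, by 0.91. Of the purine enzymes that use formyl-folate, Atic fell by 0.93 (limma adjusted p = 0.0054) and Gart by 0.57 (limma adjusted p = 0.0202). Gart missed the threshold after quantile (limma adjusted p = 0.14) and cyclic loess normalization (0.085), and when siControl replicate 1, siControl replicate 2 or siSpt6 replicate 2 was left out (at most 0.0686).

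Glycine cleavage, the mitochondrial system that takes a carbon unit from the glycine made by Shmt2, split in direction. Gldc, its decarboxylase, read 338, 310 and 309 in siSpt6, against 70.9, 74.2 and 61.9 in siControl. All siSpt6 arrays lay far above all siControl arrays, and the rise of 2.21 on the log2 scale (SE 0.12, limma adjusted p = 0.000437) was opposite in sign to the difference of Shmt2. Gcsh, the carrier protein of the same system, fell by 0.79 (SE 0.11, limma adjusted p = 0.00625), with means of 876 ± 45.5 in siSpt6 and 1510 ± 94.2 in siControl. Dld, the shared lipoamide dehydrogenase, named after its value was seen, fell by 0.59 with limma adjusted p = 0.0355. Dld missed the threshold after quantile (limma adjusted p = 0.167) and cyclic loess normalization (0.128), with the replicate block (0.0545), and when any of 5 arrays was left out (at most 0.0984). Sardh, which frees a carbon unit from sarcosine, rose by 1.74 (limma adjusted p = 0.00345) from a dim level, with 20.7 ± 2.19 in siSpt6 and 6.30 ± 1.56 in siControl. Gcat, a mitochondrial enzyme of threonine breakdown that releases glycine, fell by 0.90 (limma adjusted p = 0.00403). In all, 2 of 11 tested genes of this list rose and 3 fell, with a median log2 difference of 0.026, which turned negative under quantile (-0.0054) and cyclic loess (-0.051) normalization. Over all tested probes 7.43% were higher and 8.90% lower, and 20.7% were lower at a mean log2 level of at least 7.33. The counts of this short list are a description only.

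Carriers of serine and glycine were mostly lower, with 7 of 12 falling, 1 rising and a median log2 difference of -0.64. Without siControl replicate 2 or siSpt6 replicate 2, 4 fell. The median was -0.43 after quantile normalization and -0.45 after cyclic loess, with 6 falls and 1 rise under either. Slc1a4 and Slc1a5, neutral amino acid carriers that take up serine, fell by 2.04 (SE 0.21, limma adjusted p = 0.0021) and by 1.00 (SE 0.14, limma adjusted p = 0.00558). Sfxn1, known from human cells as the carrier that brings serine into mitochondria, named after its value was seen, read 718 ± 61.4 in siSpt6 and 1167 ± 58.1 in siControl, a fall of 0.70 (limma adjusted p = 0.0105). Its relative Sfxn3 moved the other way, at 86.2 ± 9.40 in siSpt6 and 49.4 ± 6.24 in siControl, a rise of 0.81 (limma adjusted p = 0.0135). Genes that put serine into sphingolipids and phosphatidylserine showed no call in the main fit of the deposited values. Of these 10 genes 0 rose and 0 fell (limma), and 2 had an unadjusted p under 0.05; the median log2 difference was 0.049. After either normalization Serinc1 and Serinc3 of that list, named after their values were seen, rose (limma adjusted p between 0.0208 and 0.0274). Among bright probes only, and with trend and robust eBayes, 2 genes of the list rose and 0 fell.

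Upstream of serine synthesis, 7 of 12 genes of glycolysis down to 3-phosphoglycerate fell and 0 rose (median log2 difference -0.53), and 4 of 7 genes after it fell and 1 rose (median -0.75). The median after 3-phosphoglycerate was -0.41 under quantile normalization and -0.42 under cyclic loess, with 3 falls under either. Pfkl, a phosphofructokinase, fell by 1.23 (limma adjusted p = 0.00178), and Hk2, a hexokinase, fell by 1.08 (limma adjusted p = 0.00181). Pkm, pyruvate kinase, fell by 1.14 and Eno1, enolase, by 1.07 (limma adjusted p = 0.00232 and 0.00254), while Eno3, the muscle form of enolase, rose by 1.07 (limma adjusted p = 0.0021).

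In the methionine cycle and transsulfuration, 4 of 11 genes fell and 0 rose (median log2 difference -0.47). After quantile normalization 2 fell and 1 rose, and after cyclic loess 3 fell and 1 rose. Among bright probes only, and with trend and robust eBayes, 5 fell and 1 rose. Without siControl replicate 1, 2 fell. Mtr, which returns methyl-folate to the pool of free folate by making methionine, fell by 0.80 (SE 0.14, limma adjusted p = 0.0124), with 84.1 ± 7.84 in siSpt6 and 147 ± 19.6 in siControl. Cth, which makes cysteine from serine-derived cystathionine, fell by 2.76, a larger drop on the log2 scale than that of Psat1. Mat2a and Ahcy, named after their values were seen, fell by 0.78 and 0.73, but Mat2a missed the threshold after quantile (limma adjusted p = 0.113) and cyclic loess normalization (0.0928), and when any of 5 arrays was left out (at most 0.094). Ahcy missed it after quantile normalization (limma adjusted p = 0.0732) and when siControl replicate 1 was left out (0.0517).

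A further pair of lists also held more falls than rises, as did most of the neighbouring lists above. Over all tested probes 8.90% were lower, and 20.7% among those with a mean log2 level of at least 7.33. Of 18 genes of the ATF4 pathway, 12 fell and 0 rose, with a median log2 difference of -0.83. That median was -0.62 after quantile normalization and -0.65 after cyclic loess, with 12 falls under either. Chac1 and Trib3, known ATF4 targets, fell by 2.42 and 2.06 (limma adjusted p = 0.000264 and 0.000568), and Atf4 itself, named after its value was seen, fell by 1.51 (limma adjusted p = 0.00456). Atf3, Asns, Cebpb, Atf5, Cebpg and Slc7a11, named in the same way, did not pass the threshold. Of these, Atf3 (log2 difference 0.82, limma adjusted p = 0.0991, mean log2 level 1.88), Asns (0.12) and Cebpb (0.25) had positive differences. Of 14 proliferation markers, 9 fell and 0 rose, with a median of -0.71, and their summed intensity lay between 13306 and 15121 in siSpt6 and between 23379 and 23792 in siControl. After quantile normalization 6 of the proliferation markers fell (median -0.47), and after cyclic loess 8 (median -0.50). Mcm5, part of the replicative helicase, fell by 1.26 (limma adjusted p = 0.00225), and Mcm3, another part of it, fell by 1.08 (limma adjusted p = 0.003). Mcm2, Mcm4, Mcm6 and Mcm7 of the same helicase, and Pcna, Ccna2 and Cdk1, all named after their values were seen, also fell. Mki67 (log2 difference -0.22, limma adjusted p = 0.486), Top2a, Rrm1, Rrm2 and Tk1, named in the same way, did not pass the threshold. All 14 markers had a negative difference and a mean log2 level of at least 8.8. The part of either list in the falls of the serine and folate genes was not tested.

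**Figure D5:**
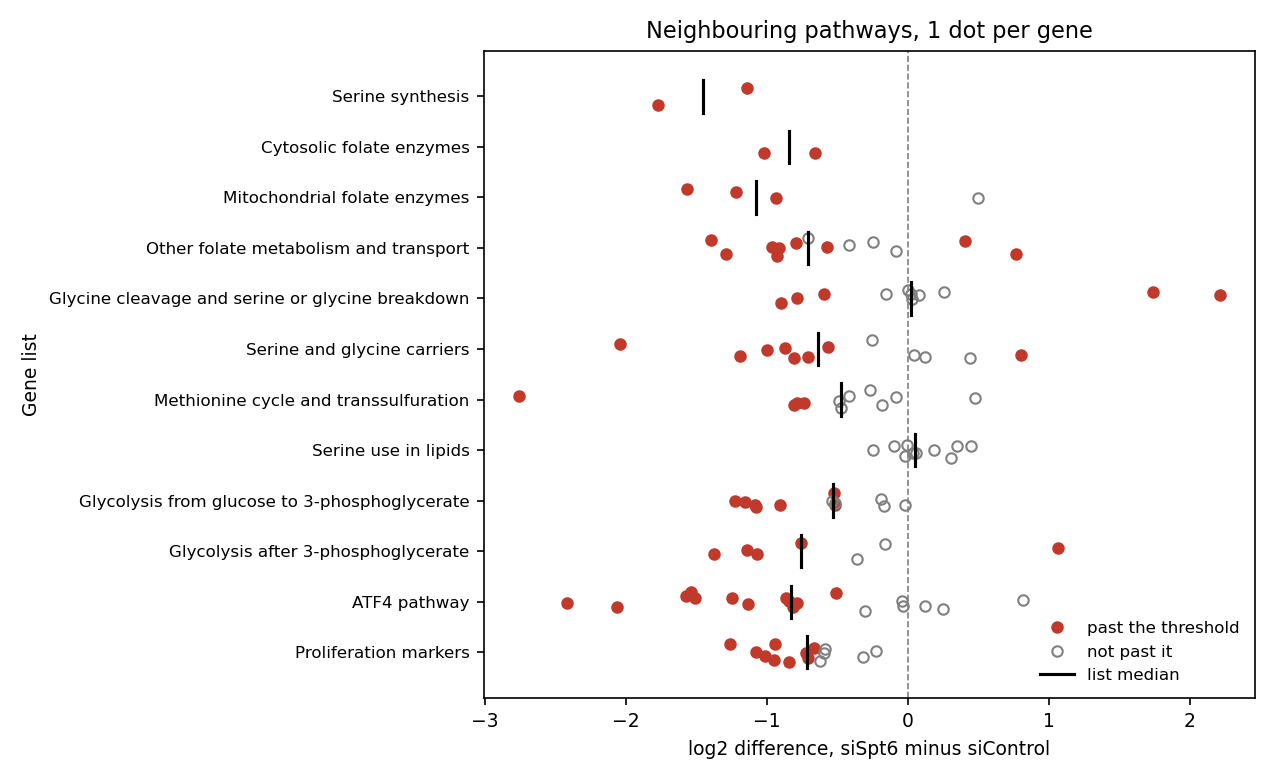
Log2 difference (siSpt6 minus siControl) of each tested gene in the serine and folate lists and in neighbouring pathways, with genes past the threshold as filled red dots, other genes as open grey dots and list medians as black bars. Serine use in lipids centres near 0 (median 0.049), and Gldc (2.21) and Sardh (1.74) stand at the right of their list.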

How the data were processed

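Total RNA of 6 samples was amplified into amino allyl RNA, coupled to Cy5 and hybridised to 1 array each, per the labels' protocols. The authors deposited intensity values on a linear scale; the sources used here do not give how background was corrected or arrays were scaled, so the scale was inferred from the numbers. Array medians agreed within 0.00109 on the log2 scale, so the values were log2-transformed as they stood, with blanks as missing.

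Probes were named from the platform's table. Of 23473 probes 16631 had 1 symbol and 6842 were unnamed, and 3947 older symbols were updated with RefSeq names (GRCm38.p6). Testing needed values on 2 or more of the 3 arrays of both groups, which 21584 probes had. limma 3.58.1 (lmFit and eBayes, R 4.3.3) fitted the group alone, two-sided, with Benjamini-Hochberg adjustment over all tested probes and a threshold of 0.05. The words rose and fell mark calls past it. Means ± SD are of intensities; folds and intervals come from log2 values.

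The members, lists and motifs were chosen with earlier results of these data known. The rule for named genes took all members, Supt6, per list the 2 called rises and the 2 called falls of smallest adjusted p (fewer where fewer were called), and the nearest gene to each member; others are said to be named after their values were seen. Alternatives were quantile and cyclic loess normalization, median centring, bright or complete probes only, a pseudocount of 2.66, trend and robust eBayes, array weights, a block for the replicate number, and the removal of each array in turn. The fit was tested on simulated data. Same-numbered arrays of the groups had deviations correlating at 0.35, 0.076 and 0.26, and arrays of different number at -0.29 to 0.016. The design does not state pairs. The main fit was planned on the group alone, with the replicate block as the alternative.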

Additional observations from a re-analysis of the deposited data

How the results depend on the processing

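All 7 falls among the serine and folate genes kept their direction and their call under each of the 15 alternatives that refitted the arrays. The adjusted p that came nearest to the threshold was 0.04, for Shmt1 (limma). Aldh1l2 could be fitted under 11 of them and passed the threshold under none (log2 difference 0.22 to 0.70, limma adjusted p from 0.111 to 0.455). The median log2 difference of the 8 genes, -1.08 as deposited, was -0.90 after quantile normalization and -0.93 after cyclic loess, and lay between -1.22 and -1.05 when 1 array was left out. Without siControl replicate 1 or 3 it covers 7 genes, because Aldh1l2 then had too few values. Over all probes, the 3525 calls became 2099 to 2522 with 1 array fewer, namely 2099 and 2230 without siControl replicates 1 and 2, and 2308 and 2160 without siSpt6 replicates 1 and 2; fewer samples entered those fits. Of the called probes 45.5% were higher as deposited, against 57.3% after quantile normalization, 53.6% after cyclic loess and 36.7% among bright probes only. With the replicate number as a block, 3594 probes and the same 7 of 8 genes were called; every array correlated best with its own number in the other group, a hint from the data and not from the design. Each gene had 1 probe, so averaging probes changed nothing. Supt6 passed the threshold after cyclic loess (log2 difference -0.42, limma adjusted p = 0.0491). No detection limit comes with the deposited values, which restricts what dim probes such as Aldh1l2 can show.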

Other observations

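Of the B cell markers, 3 passed the threshold in the deposited values, and their calls depended on the processing. Cd79b, a signalling chain of the B cell receptor, averaged 8455 ± 698 in siSpt6 and 5787 ± 707 in siControl (intensity ± SD, n = 3 each), a log2 difference of 0.55 with limma adjusted p = 0.0391. The kinase gene Blk was higher by 0.72 (limma adjusted p = 0.0393), and Cd22, an inhibitory receptor, lower at -0.62 (limma adjusted p = 0.0281). Each of the 3 missed the threshold when any of 5 arrays was left out, with limma adjusted p of at most 0.104 for Cd79b, 0.107 for Blk and 0.083 for Cd22. Cd79b also missed it with the replicate block (limma adjusted p = 0.0769). After quantile normalization the difference of Cd79b was 0.90 (limma adjusted p = 0.00675), and after cyclic loess 0.89 (0.00495). Blk and Cd22 kept their calls under both, with limma adjusted p between 0.0193 and 0.0437. The median log2 difference of the B cell markers was 0.22 as deposited, 0.41 after quantile normalization and 0.40 after cyclic loess.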
